A study of Mus musculus with 6 samples.

Results

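Interleukins and the tumour necrosis factor (TNF) superfamily are secreted or membrane-bound signals through which immune cells, fibroblasts, endothelial cells and muscle cells act on each other. They are read by receptors, some of which are shared between several ligands. The genes described here are the rows of the mouse expression table whose symbol begins with Il, Tnfsf or Tnfrsf followed by a digit, or is Tnf, Lta or Ltb. Of 19320 rows, 92 had such a symbol, and 46 of these reached a deposited log2 value of 0 or more in at least 2 columns and were kept. A log2 value of 0 stands for a level near 1 CPM, which is 1 read in a library scaled to 1000000 reads. The rule used the level alone, but a gene near the threshold could enter through the group in which it is high. Of the 46, 40 reached the threshold in all 3 groups, Il20rb and Il2rb in 2, and Il1rl1, Il21r and Tnfsf13 in TAC alone and Tnfrsf11b in sham alone.

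Messenger RNA of mouse heart had been sequenced in 3 groups of 2 samples, each labelled 2 weeks. Controls were wild-type (WT) mice with sham surgery. The second group was WT mice with transverse aortic constriction (TAC), a narrowing of the aorta that makes the left ventricle pump against a higher pressure. The third had the genotype Snai1 knockdown and also TAC. Snai1 encodes the repressor Snail, known for its role when epithelial and endothelial cells take on mesenchymal features. The design text calls the knockdown shSnai1. How it was delivered, in which cells, and whether the WT groups received a control construct are not stated in the sources at hand. The title holds an unexplained abbreviation, EndoFP, and the extraction protocol speaks of cultured cells as well as heart, while every sample carries the tissue label heart. Whether replicate libraries stem from different mice is not stated, so p-values measure the spread between libraries, which may be technical.

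Most of these receptors fall into a few structural families. Receptors of the interleukin-6 type share the signalling chain gp130, those of the interleukin-2 type share the common gamma chain, and both act through JAK kinases and STAT factors. The interleukin-1 and interleukin-17 receptors and the TNF receptors instead recruit adaptors and TRAF proteins that activate NF-kappaB and MAP kinases. In the pressure-loaded heart, interleukin-1, interleukin-6, interleukin-11 and TNF are known for roles in inflammation and fibrosis, and the interleukin-33 receptor ST2 is known as a marker of cardiac strain.

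Libraries held between 14835957 and 18247812 reads, so that 3 reads made 0.164 to 0.202 CPM. The deposited columns of each group behaved as 60:40 and 40:60 mixes of 2 libraries, and all values below come from the resolved libraries. Cardiomyocyte markers summed to between 88386 and 100607 CPM, and all 7 of them were above 0 in every library. Summed macrophage markers stood at 455 and 418 CPM in the sham group, 598 and 742 in the TAC group, and 949 and 648 with knockdown. In limma's test, 3 of these 16 markers were higher in TAC and 4 were higher with knockdown, both against sham. Summed platelet markers stood at 32.3 and 48.6 CPM in the sham group, 10.1 and 8.65 in the TAC group, and 13.0 and 10.5 with knockdown, and 2 of 5 were lower in TAC and 1 with knockdown, again against sham. The other 8 marker lists held no call, and the part of platelets in the differences from sham below was not tested. Markers of lymphocytes and NK cells summed to between 2.76 and 15.4 CPM, and 7 of 12 were at 0 in at least 1 library, including Cd3d, Cd3e, Cd3g and Cd8a. Snai1 itself stood at 5.12 and 3.45 CPM after sham surgery, 4.48 and 4.24 after TAC, and 3.41 and 2.74 with knockdown. Its knockdown libraries were the lowest, but the difference from TAC of -0.51 ± 0.33 (log2, SE) did not pass the test (limma, Benjamini-Hochberg adjusted p = 0.999).

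A larger part of the receptor rows than of the ligand rows reached the threshold. Of 56 receptor rows 36 were kept, and of 32 ligand rows 9 were kept. The threshold is on CPM and takes no account of transcript length, so a long transcript reaches it more easily. Among the kept genes, the median CPM per kilobase of exon was 2.65 for interleukin ligands and 1.34 for interleukin receptors. For TNF ligands and TNF receptors it was 2.26 and 1.21. The 9 ligands were the interleukins Il15, Il16, Il17d, Il33 and Il34 and the TNF family members Tnfsf10, Tnfsf12, Tnfsf13 and Tnfsf13b. The soluble inhibitor Il18bp was also kept, while Il1rn, which encodes the interleukin-1 receptor antagonist, was not. Every kept gene had reads in every library, with at least 66 reads in all, and 34 of the 46 rows not kept were at 0 in at least 1 library. The rows just inside the threshold, by their second highest column, were Il1rl1 at 0.22, Tnfsf13 at 0.24 and Tnfrsf18 at 0.27 on the deposited log2 scale. Just outside were Tnfsf9 at -0.05, Tnfrsf13b at -0.30 and Tnfrsf26 at -0.32.

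**Figure D1:**
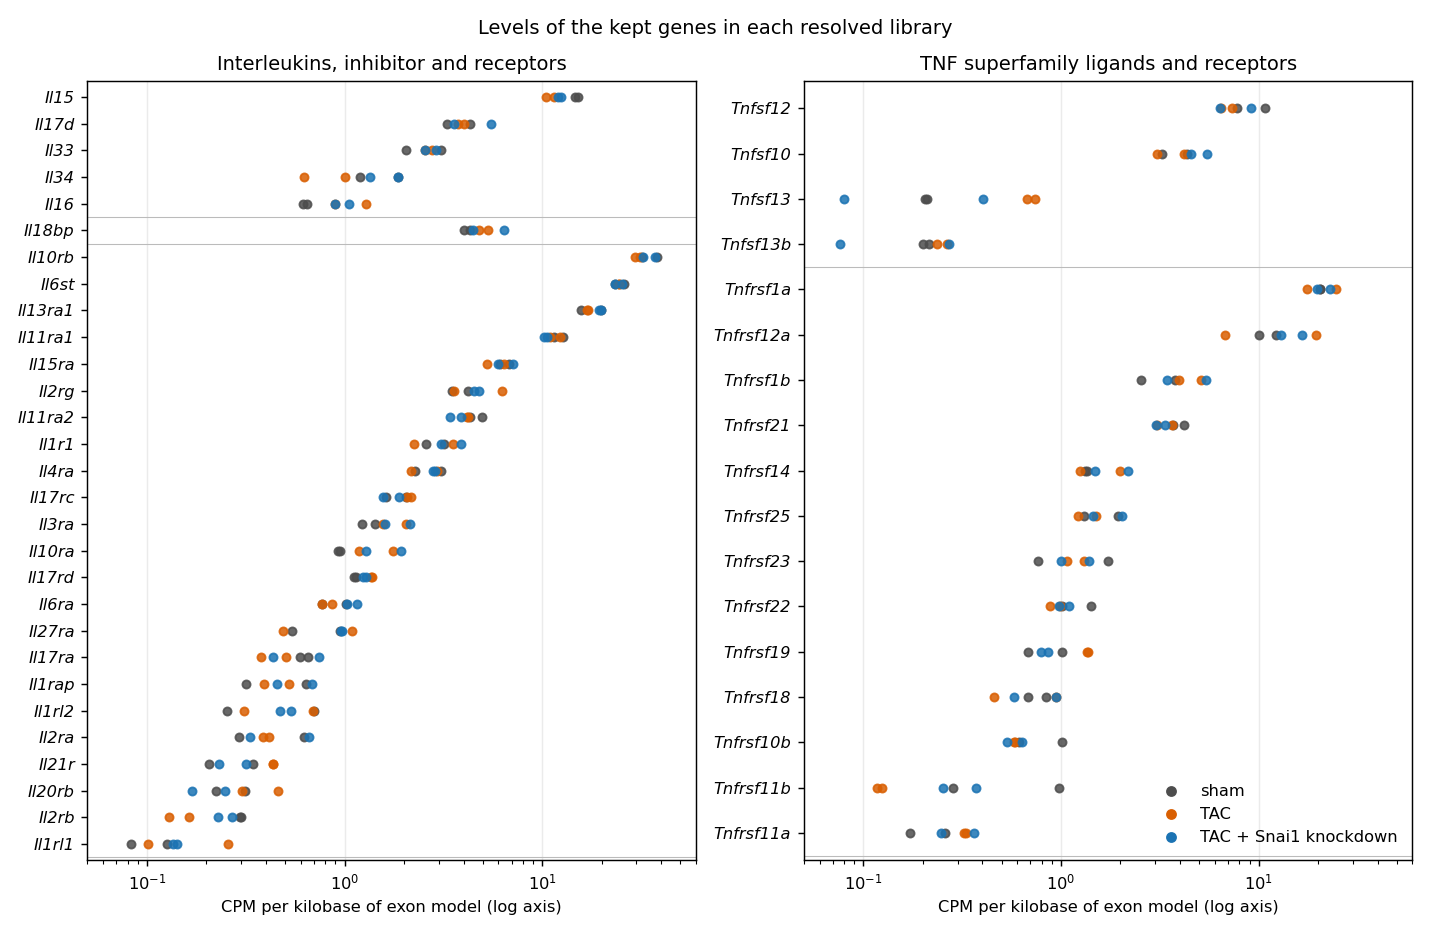
CPM per kilobase of exon model on a log axis for the 46 kept genes, 1 point per library, grouped by role and sorted by level. Il10rb, Il6st, Tnfrsf1a and Il13ra1 lie highest in the order, with means of 33.3, 24.5, 21.0 and 18.1.

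None of the 46 genes changed in any comparison at an adjusted p below 0.05 over the 14447 genes tested. The test was limma on log2 CPM of the resolved libraries, and limma with voom weights or with robust variance also called 0 of them in each comparison. Across all genes, calls made up 0.159% between TAC and sham, 0% between knockdown and TAC, and 0.242% between knockdown and sham. At an unadjusted p below 0.05 there were 5 of the 46 between TAC and sham, or 10.9%, beside 9.57% of all genes. Between knockdown and TAC there were 3, or 6.52%, beside 2.08%, and between knockdown and sham 2, or 4.35%, beside 8.8%. Differences of the size seen in single genes below are thus values that missed the test.

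Counting genes whose 2 libraries of one group all lay above or below those of the other gave a similar picture. Between TAC and sham, 12 of the 46 (26.1%) were higher without overlap, beside 23.8% of all genes, and 11 (23.9%) were lower, beside 16.3%. Knockdown and TAC were separated for 8 genes in each direction (17.4% each), beside 16% of all genes for higher and 12.4% for lower. Knockdown and sham were separated for 12 higher (26.1%) and 5 lower (10.9%), beside 25.5% and 13.9%. These counts hold genes that entered through 1 group, Tnfsf13 and Il21r among those higher in TAC and Tnfrsf11b among those lower, so that they are a description and no support for a shift. With a mean of at least 1 CPM over all libraries as the rule instead, for these and for all genes, 43 remained without Il1rl1, Il2rb and Tnfsf13. Between TAC and sham 25.6% of them were then higher and 23.3% lower, beside 24.5% and 16.2% of 13291 genes, and again none was called. The median log2 difference of the 46 was 0.01 between TAC and sham, 0.13 between knockdown and TAC, and 0.10 between knockdown and sham, where all genes had 0.04, 0.02 and 0.05. The 3 comparisons share libraries and are not independent of each other. In bulk RNA, fewer cells of a type and less RNA per cell cannot be told apart.

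The precision differed widely between genes. The SE of the log2 difference ran from 0.10 to 0.94 with a median of 0.30. For 25 genes between TAC and sham, 27 between knockdown and TAC and 25 between knockdown and sham, the whole 95% interval lay within 2-fold in either direction. For the others the interval reached 2-fold or beyond.

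**Figure D2:**
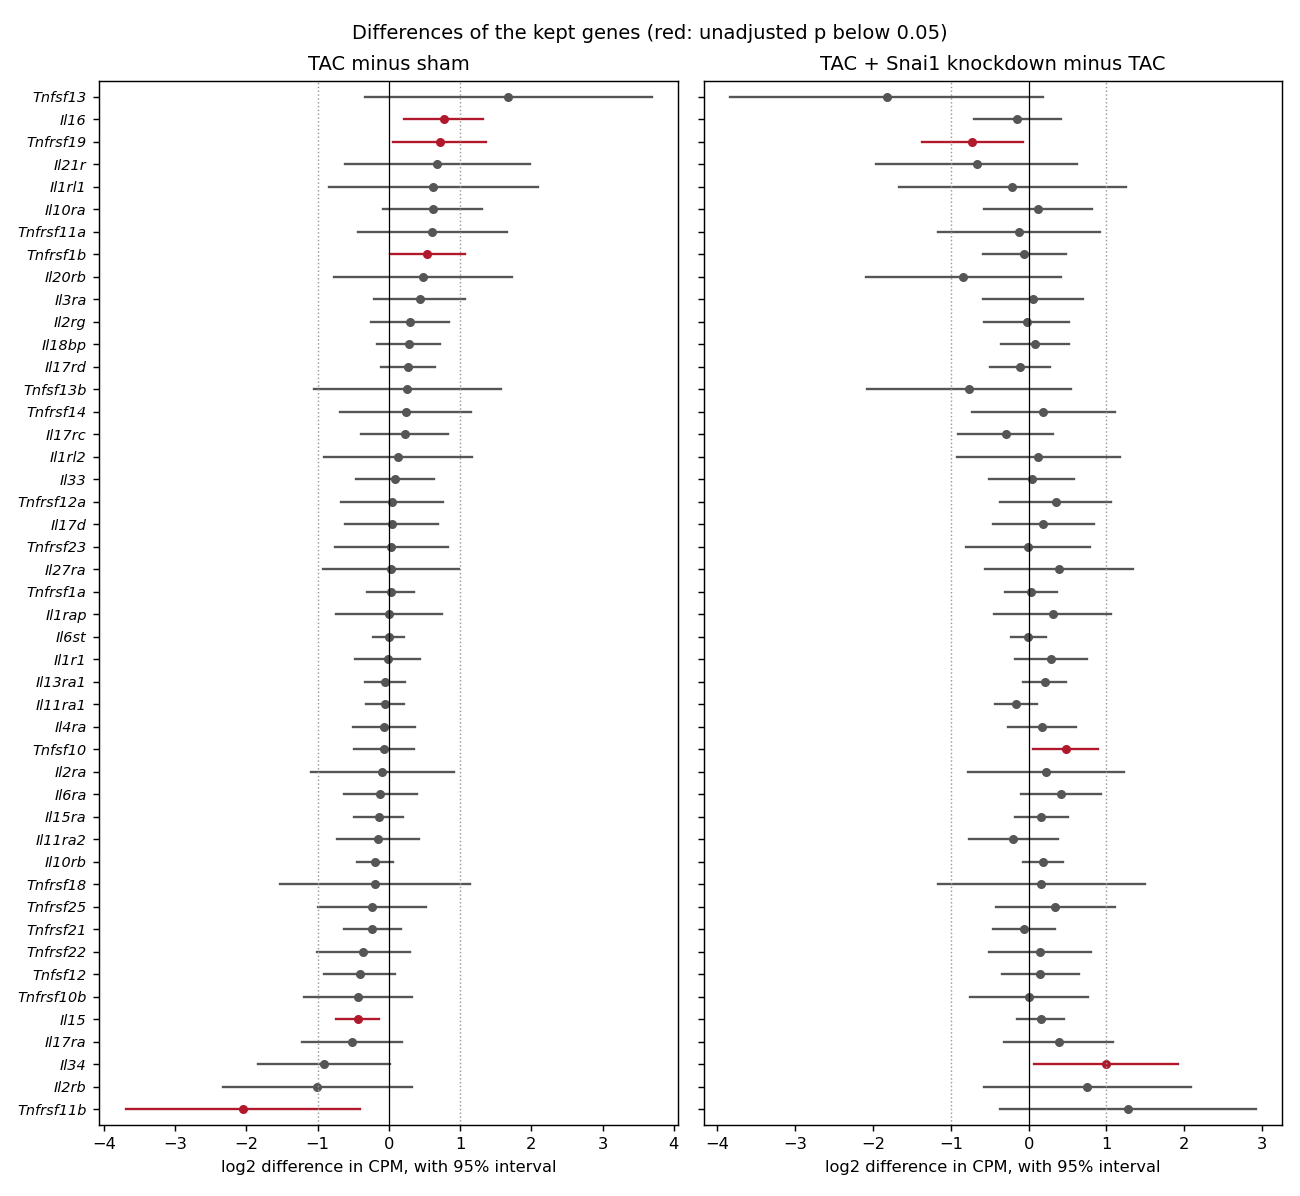
Log2 difference in CPM with its 95% interval for each of the 46 genes, TAC minus sham on the left and TAC with knockdown minus TAC on the right, in the order of the left panel. Dotted lines mark 2-fold and red marks an unadjusted p below 0.05, of which there are 5 and 3. The wide intervals belong to the genes with few reads, such as Tnfsf13 and Tnfrsf11b.

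Among the interleukin ligands, Il15 was the most abundant per length, at 10.4 to 15.2 CPM per kilobase across the libraries. Il15 encodes interleukin-15, which sustains NK cells and memory CD8 T cells and is also made by striated muscle. It lies at chr8:82331632-82403222 (minus strand, GRCm38) and stood at 33.0 and 34.3 CPM in sham hearts, 26.1 and 23.6 in TAC hearts, and 27.1 and 28.1 with knockdown. Both sham libraries were above all others, and the knockdown libraries lay between the other groups without overlap. TAC minus sham was -0.44 ± 0.14 (log2, SE), which carried the smallest p of the 46 genes, 0.00781, and missed the adjusted threshold (limma, adjusted p = 0.302). Against sham the knockdown difference was -0.28 ± 0.14 (adjusted p = 0.601). Its private receptor chain Il15ra, which presents interleukin-15 to neighbouring cells, stood at 30.1 and 27.1, 23.3 and 28.6, and 31.6 and 26.6 CPM in the same order, with all groups overlapping.

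Il16 encodes a precursor that caspase-3 cleaves to interleukin-16, a chemoattractant that binds CD4. It lies at chr7:83642825-83745726 (minus strand) and stood at 5.06 and 4.82 CPM in the sham group, 7.07 and 10.05 in the TAC group, and 7.01 and 8.27 with knockdown. All 4 libraries with TAC surgery were above both sham libraries. The difference was 0.77 ± 0.26 between TAC and sham (limma, unadjusted p = 0.0104, adjusted p = 0.331) and 0.62 ± 0.26 between knockdown and sham (unadjusted p = 0.0311, adjusted p = 0.518). Summed macrophage markers were higher in the same 4 libraries, and their part in the difference was not tested. The exons of Il16 overlap Stard5 on the opposite strand over 17.4% of their bases, and no strand setting is given. Stard5 stood at 4.92 and 3.85, 4.64 and 5.28, and 6.10 and 4.22 CPM, so that its groups overlapped.

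Il34 encodes interleukin-34, a ligand of the macrophage receptor CSF1R beside CSF1. It lies at chr8:110741829-110805924 (minus strand) and stood at 3.64 and 2.35 CPM after sham surgery, 1.22 and 1.97 after TAC, and 3.67 and 2.63 with knockdown. The TAC libraries were the lowest, with 22 and 34 reads, and knockdown and sham overlapped. The difference was -0.91 ± 0.43 between TAC and sham (limma, unadjusted p = 0.054, adjusted p = 0.533) and 0.99 ± 0.43 between knockdown and TAC (unadjusted p = 0.0373, adjusted p = 0.999). Both values rest on the same TAC libraries, and without TAC replicate 1 they were -0.56 and 0.65. The receptor gene Csf1r, itself a macrophage marker, stood at 41.9 and 43.8 CPM in sham hearts, 49.1 and 50.8 in TAC hearts and 64.3 and 55.2 with knockdown. Its groups were fully separated, and the difference between knockdown and sham was 0.48 ± 0.13 (adjusted p = 0.230).

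Il33 encodes the nuclear alarmin interleukin-33, which injured cells release, and Il17d a member of the interleukin-17 family. Il33 stood at 8.90 and 5.92 CPM in the sham group, 7.35 and 8.01 in the TAC group, and 8.39 and 7.40 with knockdown. The 2 sham libraries spanned all others, and the 95% interval of TAC minus sham ran from -0.47 to 0.63. Il17d ranged from 4.18 to 7.01 CPM with all groups overlapping. Il18bp, whose product binds and neutralises interleukin-18, stood at 12.1 and 13.0 CPM after sham surgery, 14.4 and 16.1 after TAC, and 13.4 and 19.4 with knockdown. All 4 libraries with TAC surgery were above sham, and the difference between knockdown and sham was 0.36 ± 0.20 (limma, adjusted p = 0.659), or 0.10 without knockdown replicate 2 and 0.62 without knockdown replicate 1. Its target Il18 had between 1 and 8 reads in a library.

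**Figure D3:**
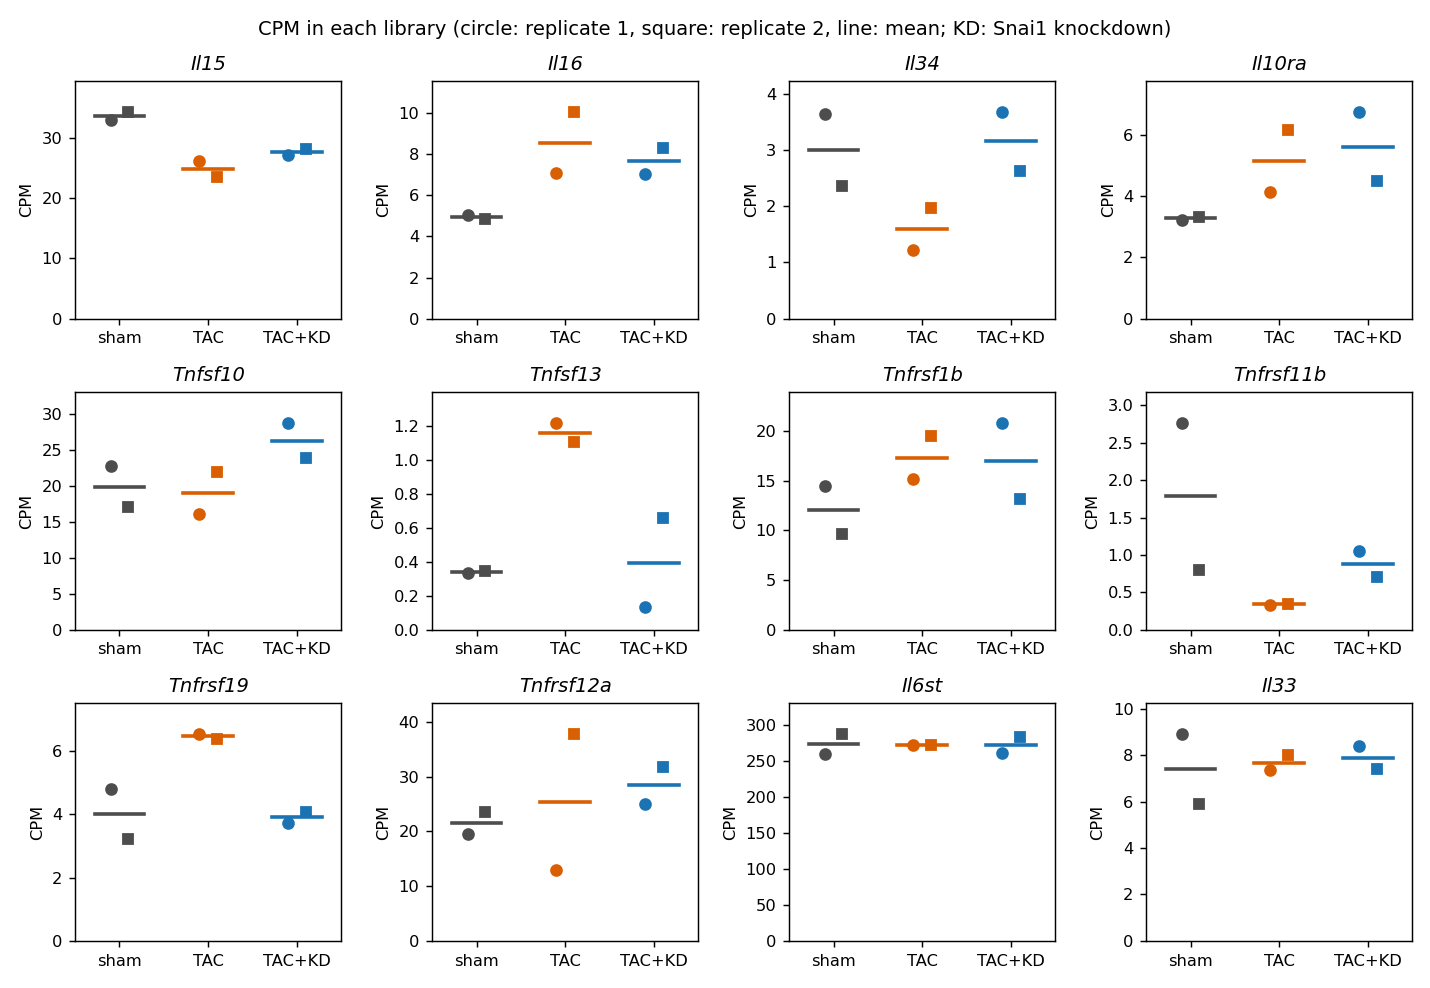
CPM in each library for 12 genes, with circles for replicate 1, squares for replicate 2, a line at the mean of the group and every axis starting at 0. Il15 is highest in sham, Il34 and Tnfrsf11b are lowest in TAC, Tnfrsf19 is highest in TAC, and Il6st is level.

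The receptors of the interleukin-6 type were led by Il6st, which encodes the shared chain gp130. Il6st held 260 and 287 CPM in sham hearts, 272 and 272 in TAC hearts, and 261 and 283 with knockdown, a ratio of 1.10 between the highest and the lowest library. It varied the least of the 46 genes, and the 95% interval of TAC minus sham ran from -0.23 to 0.22. The ligand-binding chain for interleukin-6, Il6ra, stood at 8.83 and 6.66 CPM in the sham group, 7.46 and 6.68 in the TAC group, and 9.96 and 8.88 with knockdown. Its knockdown libraries were the highest, 0.41 ± 0.24 above TAC (limma, adjusted p = 0.999). Il27ra, which pairs with gp130 to bind interleukin-27, ranged from 1.71 to 3.83 CPM. Its TAC libraries were both the lowest and the highest of all.

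Il11ra1 encodes the binding chain for interleukin-11 and stood at 51.6 and 56.7 CPM after sham surgery, 49.0 and 55.2 after TAC, and 45.8 and 47.1 with knockdown. Its level was lowest in both knockdown libraries, by a small margin, and the 95% interval of knockdown minus TAC ran from -0.43 to 0.11. A near-identical copy, Il11ra2, stood at 6.47 and 5.63, 5.47 and 5.40, and 4.46 and 5.04 CPM in the same order. The coding sequences of both are 1296 bases long and differ at 13 of them, with a longest identical run of 356 bases. Of the 50-base stretches of Il11ra2, 59.3% also occur in Il11ra1 and 100% in the predicted gene Gm13305. A short read from most of this sequence cannot be assigned to 1 copy, and how such reads were counted is not given, so the split between Il11ra1 and Il11ra2 is uncertain. The stretch where they can be told apart best is shown here from the GENCODE M21 transcripts (GRCm38), coding bases 943 to 1062, with the 4 differing bases in capitals. It lies at chr4:41767592-41768055 (plus strand) for Il11ra1 and chr4:42657428-42657892 (minus strand) for Il11ra2, spans that include intron sequence not printed.
Il11ra1: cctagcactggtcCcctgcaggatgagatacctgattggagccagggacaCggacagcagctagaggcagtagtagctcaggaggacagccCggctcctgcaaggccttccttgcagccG
Il11ra2: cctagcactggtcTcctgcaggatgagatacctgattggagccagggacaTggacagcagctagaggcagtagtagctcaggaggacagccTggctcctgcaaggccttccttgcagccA

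The interleukin-10 receptor has a ligand-binding chain, Il10ra, found mainly on blood cells, and a chain shared with other cytokines, Il10rb. Il10rb was the highest of the 46 genes per kilobase and stood at 144 and 121 CPM in sham hearts, 119 and 112 in TAC hearts, and 141 and 123 with knockdown. TAC was lowest without overlap, within a 95% interval of TAC minus sham from -0.45 to 0.06. Il10ra lies at chr9:45253837-45269149 (minus strand) and stood at 3.24 and 3.33 CPM in the sham group, 4.14 and 6.16 in the TAC group, and 6.75 and 4.49 with knockdown. All 4 libraries with TAC surgery were above both sham libraries. The difference was 0.62 ± 0.32 between TAC and sham (limma, adjusted p = 0.577) and 0.74 ± 0.32 between knockdown and sham (unadjusted p = 0.0384, adjusted p = 0.535). The first was 0.33 without TAC replicate 2, and the second 0.45 without knockdown replicate 1. The first knockdown library was the highest for Il10ra and also for the summed macrophage markers. Of 3852 stretches of 50 bases in Il10rb, 13.6% are shared with the gene model Gm21970. Il20rb, a chain of the interleukin-20 receptors, ranged from 0.712 to 1.93 CPM.

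The chains that bind interleukin-4 and interleukin-13 were both well covered. Il13ra1, which joins Il4ra in the receptor for either cytokine, stood at 73.4 and 58.2 CPM after sham surgery, 62.3 and 63.5 after TAC, and 72.0 and 73.4 with knockdown. Il4ra stood at 13.6 and 18.4, 13.0 and 17.6, and 17.3 and 16.8 CPM. Neither separated TAC from sham, and the 95% interval of that difference ran from -0.33 to 0.22 for Il13ra1 and from -0.50 to 0.37 for Il4ra.

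The interleukin-2 type receptors share the common gamma chain, Il2rg. It stood at 10.04 and 8.33 CPM in sham hearts, 8.51 and 14.9 in TAC hearts, and 11.4 and 10.8 with knockdown, and the TAC libraries spanned the knockdown libraries and overlapped sham. A share of 27.5% of its 50-base stretches also belongs to the gene model Gm20489. Il2rb, the beta chain for interleukin-2 and interleukin-15 on NK and T cells, had 19 and 22 reads in the sham group, 10 and 12 in the TAC group, and 15 and 21 with knockdown. In CPM the TAC libraries were the lowest, by -1.01 ± 0.62 against sham (limma, adjusted p = 0.645), and TAC was the only group in which the gene missed the threshold. Il2ra and Il21r ranged from 1.67 to 3.78 and from 0.689 to 1.45 CPM. Il7r, the interleukin-7 receptor of lymphocytes, was not kept, with 15 and 8 reads after sham surgery, 0 and 5 after TAC, and 2 and 8 with knockdown. Summed lymphocyte and NK markers in the same order stood at 15.4 and 4.08, 2.76 and 3.95, and 8.85 and 4.60 CPM, and their part in these values was not tested.

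Of the interleukin-1 receptor family, Il1r1, Il1rap, Il1rl1 and Il1rl2 were kept. The interleukin-18 receptor chains Il18r1 and Il18rap, of the same family, were not, with 20 and 16 reads over all libraries. Il1r1, the receptor for interleukin-1 alpha and beta, stood at 20.3 and 16.4 CPM in sham hearts, 14.4 and 22.6 in TAC hearts, and 24.6 and 19.7 with knockdown. Il1rap, the accessory chain it shares with the interleukin-33 receptor, stood at 7.21 and 3.62, 4.42 and 5.92, and 7.80 and 5.15 CPM. For both genes TAC and sham overlapped. Il1rl1, which encodes ST2, had only 13 and 10 reads in the sham group, 32 and 12 in the TAC group, and 15 and 17 with knockdown. The first TAC library was the highest and the second lay within the range of sham, and the 95% interval of TAC minus sham ran from -0.84 to 2.09. Il1rl2, a receptor for interleukin-36 cytokines, ranged from 1.72 to 4.79 CPM with all groups overlapping. The decoy receptor Il1r2 had 6 reads in 1 sham library and 0 in all others.

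Of the interleukin-17 receptor chains, Il17ra and Il17rc together bind interleukin-17A and Il17rd is known as an inhibitor of growth factor signalling. Il17ra stood at 5.66 and 5.17 CPM after sham surgery, 3.26 and 4.36 after TAC, and 6.42 and 3.78 with knockdown. Il17rc stood at 4.31 and 5.46, 5.80 and 5.52, and 4.20 and 5.04 CPM. TAC was lowest against sham for Il17ra and highest for Il17rc, each without overlap and with an interval that included 0. Il17rd varied little within each group, with 12.6 and 12.2 CPM in sham hearts, 15.1 and 14.9 in TAC hearts, and 13.7 and 14.1 with knockdown. Its groups were fully separated, yet the 95% interval of TAC minus sham ran from -0.11 to 0.65. Il3ra, the alpha chain for interleukin-3, ranged from 3.62 to 6.36 CPM and was above sham in all 4 libraries with TAC surgery.

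Of the TNF ligands, Tnfsf10 encodes TRAIL, which can trigger cell death through death receptors. It lies at chr3:27317028-27342427 (plus strand) and stood at 22.8 and 17.1 CPM in the sham group, 16.2 and 21.9 in the TAC group, and 28.8 and 23.9 with knockdown. Knockdown was above all other libraries, and TAC and sham overlapped. The difference was 0.48 ± 0.20 between knockdown and TAC (limma, unadjusted p = 0.0291, adjusted p = 0.999) and 0.41 ± 0.20 between knockdown and sham (adjusted p = 0.577). The first was 0.26 without TAC replicate 1, and the second ran from 0.20 without sham replicate 2 to 0.62 without sham replicate 1. The death receptor for TRAIL in the mouse, Tnfrsf10b, stood at 5.53 and 3.33 CPM after sham surgery, 3.15 and 3.19 after TAC, and 3.47 and 2.90 with knockdown, with knockdown and TAC overlapping.

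Tnfrsf22 and Tnfrsf23 encode decoy receptors for TRAIL in the mouse and lie beside each other on chromosome 7. Tnfrsf22 ranged from 3.70 to 5.999 CPM and Tnfrsf23 from 3.04 to 6.88, each with its highest level in the first sham library. Their aligned coding sequences differ at 84 of 528 bases (84.1% identical), but share an identical run of 102 bases. A read from within that run fits both genes, so the split between them is uncertain there. The run and its borders are shown from the GENCODE M21 transcripts (GRCm38), with the 3 differing bases in capitals. The Tnfrsf22 stretch covers coding bases 412 to 531 at chr7:143638417-143640777 and the Tnfrsf23 stretch coding bases 382 to 501 at chr7:143668573-143670857, both on the minus strand and both across an intron not printed.
Tnfrsf22: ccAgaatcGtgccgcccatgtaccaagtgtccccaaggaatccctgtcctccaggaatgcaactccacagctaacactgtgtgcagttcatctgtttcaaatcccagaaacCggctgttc
Tnfrsf23: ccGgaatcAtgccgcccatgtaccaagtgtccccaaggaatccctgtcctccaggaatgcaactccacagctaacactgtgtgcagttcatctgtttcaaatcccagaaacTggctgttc

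Tnfsf12 encodes TWEAK and Tnfsf13 encodes APRIL, a growth factor of B cells and plasma cells, and the genes are adjacent on chromosome 11. Tnfsf12 stood at 16.3 and 11.7 CPM in sham hearts, 9.73 and 11.1 in TAC hearts, and 13.9 and 9.64 with knockdown. TAC was below sham without overlap, by -0.41 ± 0.23 (limma, adjusted p = 0.613), and by -0.17 without sham replicate 1 or -0.65 without sham replicate 2. Tnfsf13 had 5 and 6 reads in the sham group, 22 and 19 in the TAC group, and 2 and 12 with knockdown. The TAC libraries were the highest, with a difference of 1.67 ± 0.94 from sham (adjusted p = 0.604), and knockdown minus TAC was -1.82 ± 0.94 (adjusted p = 0.999), or -0.79 without knockdown replicate 1 and -2.86 without knockdown replicate 2. The gene was kept only because its TAC level reached the threshold, so its excess in TAC follows in part from the rule. The read-through gene Tnfsfm13 shares 46.8% of the 50-base stretches of Tnfsf12 and 57.3% of those of Tnfsf13, so that the reads of both are uncertain. Tnfsfm13 itself had 6 and 16 reads in the sham group, 4 and 7 in the TAC group, and 10 and 3 with knockdown. Its TAC minus sham difference was -0.97 ± 1.06, with a 95% interval from -3.23 to 1.29. The part of shared reads in the Tnfsf13 values was not tested. Tnfsf13b, which encodes the B cell survival factor BAFF, had 22 and 24 reads after sham surgery, 33 and 28 after TAC, and 8 and 34 with knockdown. The receptors of APRIL and BAFF, Tnfrsf13b, Tnfrsf13c and Tnfrsf17, were all below the threshold.

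Tnfrsf12a encodes Fn14, the receptor of TWEAK. It stood at 19.5 and 23.6 CPM in sham hearts, 13.0 and 37.7 in TAC hearts, and 25.04 and 31.8 with knockdown. Its TAC libraries were the lowest and the highest of all 6, and the difference from sham was 0.05 ± 0.33 (limma, adjusted p = 0.976), a value that was 0.81 without TAC replicate 1 and turned to -0.72 without TAC replicate 2 and to -0.09 without sham replicate 1. Nppb, which encodes the cardiac stress peptide BNP, also had its lowest and highest values in the TAC libraries, at 79.5 and 70.9 CPM in the sham group, 50.8 and 184 in the TAC group, and 97.0 and 163 with knockdown. The libraries of the TAC group thus differed from each other for Tnfrsf12a and Nppb by more than the group means differed. Nppa, another natriuretic peptide gene, stood at 113 and 68.2 CPM in the sham group, 173 and 346 in the TAC group, and 106 and 205 with knockdown. Both TAC libraries were above both sham libraries for Nppa, with a difference of 1.48 ± 0.31 (limma, adjusted p = 0.0703).

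TNF itself is read by Tnfrsf1a, found on most cells, and Tnfrsf1b, found mainly on immune and endothelial cells. Tnfrsf1a stood at 52.9 and 53.2 CPM after sham surgery, 45.5 and 63.9 after TAC, and 59.2 and 51.1 with knockdown, and the 95% interval of TAC minus sham ran from -0.31 to 0.35. Tnfrsf1b lies at chr4:145213463-145246870 (minus strand) and stood at 14.4 and 9.65 CPM in sham hearts, 15.1 and 19.5 in TAC hearts, and 20.8 and 13.2 with knockdown. TAC was above sham without overlap, by 0.54 ± 0.25 (limma, unadjusted p = 0.0466, adjusted p = 0.511), a value that ran from 0.25 without sham replicate 2 to 0.83 with sham replicate 1 left out. Knockdown minus sham was 0.49 ± 0.25 with overlapping libraries, or 0.16 without knockdown replicate 1 and 0.82 without knockdown replicate 2. The first knockdown library was the highest for Tnfrsf1b as for the summed macrophage markers, and the part of these cells in the level was not tested.

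Tnfrsf11b encodes osteoprotegerin, a secreted decoy that binds RANKL and TRAIL. It was kept only because its sham level reached the threshold, so its higher level in sham follows in part from the rule. It lies at chr15:54250619-54278484 (minus strand) and had 41 and 14 reads in the sham group, 6 and 6 in the TAC group, and 16 and 13 with knockdown. In CPM these were 2.76 and 0.804, 0.332 and 0.348, and 1.05 and 0.712. Both TAC libraries were below all others, and the first sham library stood far above the second. The difference between TAC and sham was -2.05 ± 0.77 (limma, unadjusted p = 0.018, adjusted p = 0.390), or -1.18 without sham replicate 1 and -2.93 without sham replicate 2. Knockdown minus TAC was 1.28 ± 0.77 (adjusted p = 0.999). Tnfrsf11a, which encodes the RANKL receptor RANK, ranged from 1.03 to 2.16 CPM, with TAC above sham without overlap.

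Tnfrsf19 encodes TROY, a receptor known from the developing skin and nervous system. It lies at chr14:60963875-61046490 (minus strand) and stood at 4.79 and 3.22 CPM after sham surgery, 6.52 and 6.39 after TAC, and 3.74 and 4.06 with knockdown. The TAC libraries were above all 4 others, and the knockdown libraries lay between the 2 sham libraries. The difference was 0.71 ± 0.30 between TAC and sham (limma, unadjusted p = 0.0337, adjusted p = 0.468) and -0.72 ± 0.30 between knockdown and TAC (unadjusted p = 0.0314, adjusted p = 0.999). Without sham replicate 2 the first was 0.43. It was the only one of the 46 genes with an unadjusted p below 0.05 in both of these comparisons, which share the TAC libraries.

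The remaining TNF receptors had intervals that included 0 in all comparisons. Tnfrsf21, the death receptor DR6, stood at 15.2 and 17.2 CPM in sham hearts, 14.98 and 12.5 in TAC hearts, and 13.8 and 12.4 with knockdown, with a 95% interval of TAC minus sham from -0.64 to 0.17. Tnfrsf14, Tnfrsf18 and Tnfrsf25, which encode the T cell regulators HVEM, GITR and DR3, ranged from 1.80 to 3.15, from 0.697 to 1.44 and from 2.76 to 4.65 CPM. Tnfrsf18 lies close to the threshold, and 27.2% of the exon bases of Tnfrsf18 overlap the gene model Gm16008 on the opposite strand.

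The classic inflammatory ligands were below the threshold, with at most 22 reads in any library. Il6 had 2 reads in 1 sham library and 0 in the other 5, and Il10 had 2 reads in 1 TAC library and 0 in the others. Interleukin-11, known as a fibrosis signal, was covered by 6 and 1 reads of Il11 in the sham group, 0 and 4 in the TAC group, and 0 and 0 with knockdown. Il1b, the secreted interleukin-1 of activated macrophages, had 1 and 11 reads after sham surgery, 8 and 16 after TAC, and 22 and 4 with knockdown. Tnf had 11 and 0 reads in sham hearts, 4 and 16 in TAC hearts, and 12 and 14 with knockdown. Il1rn, the antagonist of Il1r1, had 8 and 7, 2 and 6, and 4 and 9 reads. Of these, Il1b and Tnf had enough reads to be tested and passed in no comparison, and for the others no difference was detectable at this depth. An even number of reads was found for 71.5% of the 18129 values of 1 to 10 reads in the whole table, against 49.9% of 44057 values above 100 and up to 1000, a property of the low counts whose cause was not tested.

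**Figure D4:**
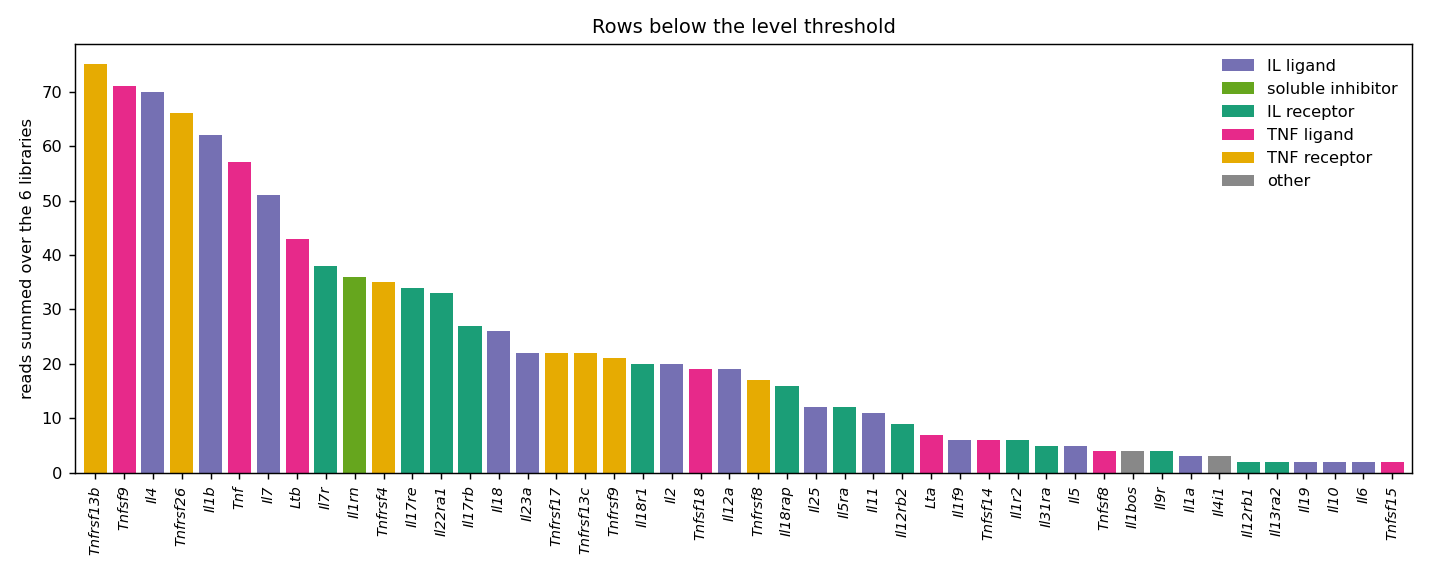
Reads summed over the 6 libraries for the 46 rows not kept, as bars from 0 coloured by role. Tnfrsf13b has the most, with 75 reads in all, and Il6 and Il10 stand at 2 reads each.

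Genes of the same pathways under other names also held no call: 0 of the tested genes of each of 7 lists passed the adjusted threshold in any comparison. The lists were TNF family genes with other symbols (8 tested), interleukin-6 and haematopoietin cytokines and receptors (16), JAK and STAT genes (10), SOCS inhibitors (8), interleukin-1 and TNF adaptors and kinases (22), NF-kappaB genes (15) and processing enzymes (7). At an unadjusted p below 0.05 between TAC and sham, where 9.57% of all genes stood, there were 1, 3, 2, 1, 4, 2 and 0 genes in the same order. Between knockdown and TAC, beside 2.08% of all genes, there was 1 JAK or STAT gene and none in the other lists. Between knockdown and sham, beside 8.8%, there were 0, 4, 2, 1, 2, 1 and 0. The median log2 differences between TAC and sham were 0.24, 0.12, 0.00, 0.17, 0.09, 0.15 and 0.03, beside 0.04 for all genes.

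Below gp130, Stat3 encodes its main transcription factor and stood at 151 and 184 CPM in the sham group, 208 and 235 in the TAC group, and 183 and 187 with knockdown. TAC was the highest without overlap, 0.40 ± 0.12 above sham (limma, adjusted p = 0.235), or 0.26 without sham replicate 1. Jak1, the kinase that gp130 and many other chains use, stood at 215 and 265, 202 and 179, and 199 and 201 CPM, with TAC minus sham at -0.33 ± 0.12 (adjusted p = 0.372), or -0.18 without sham replicate 2. Socs2, an inhibitor of JAK and STAT signalling, stood at 35.7 and 30.8 CPM after sham surgery, 46.2 and 47.4 after TAC, and 36.8 and 41.3 with knockdown, with TAC minus sham at 0.50 ± 0.14 (adjusted p = 0.202). Stat3 and Socs2 had their highest levels in both TAC libraries, and Jak1 its highest in both sham libraries. These genes were named for their small p, so this separation follows in part from the choice. Of all genes, 23.8% were higher in TAC than in sham without overlap and 16.3% were lower. Socs3, the feedback inhibitor of gp130, stood at 7.82 and 7.06, 4.37 and 8.19, and 4.13 and 4.55 CPM, and its difference between knockdown and sham was -0.77 ± 0.31 (adjusted p = 0.502).

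Downstream of the TNF and interleukin-1 receptors, Traf2 encodes the adaptor of both TNF receptors. It stood at 7.28 and 10.5 CPM in sham hearts, 13.3 and 13.6 in TAC hearts, and 13.2 and 12.7 with knockdown, with TAC minus sham at 0.62 ± 0.22 (limma, adjusted p = 0.345), or 0.36 without sham replicate 1. Tab1, a partner of the kinase TAK1, had a difference of 0.41 ± 0.16 in the same comparison (adjusted p = 0.404), and Rel, an NF-kappaB subunit, of 0.61 ± 0.25 (adjusted p = 0.442), which ran from 0.18 without sham replicate 2 to 1.04 without sham replicate 1. Nfkbie, an NF-kappaB inhibitor, had 11 and 20 reads in the sham group, 38 and 57 in the TAC group, and 49 and 23 with knockdown, with TAC minus sham at 1.48 ± 0.55 (adjusted p = 0.379). Each of these 4 genes had both TAC libraries above both sham libraries, as had 23.8% of all genes. They were named for their small p, so this separation follows in part from the choice. For Rel the margin was narrow, with 14.83 and 8.16 CPM in sham hearts and 14.87 and 19.05 in TAC hearts. Cd40, the TNF receptor family member through which T cells activate macrophages and B cells, had 22 and 22 reads after sham surgery, 62 and 50 after TAC, and 41 and 42 with knockdown. Its TAC minus sham difference was 1.18 ± 0.41 (adjusted p = 0.345), and no 2 groups overlapped in CPM.

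Csf2rb2, a receptor chain for interleukin-3 in the mouse, ranged from 0.689 to 5.52 CPM, with TAC minus sham at 1.65 ± 0.58 (limma, adjusted p = 0.359), or 0.92 without TAC replicate 2, and its TAC libraries differed 2.77-fold from each other. Eda2r, a TNF receptor family member for ectodysplasin, stood at 3.84 and 2.76 CPM in sham hearts, 4.03 and 3.66 in TAC hearts, and 5.11 and 4.33 with knockdown. Nlrp3, the inflammasome sensor upstream of interleukin-1 release, had between 5 and 12 reads in a library, and Gsdmd, the pore through which interleukin-1 leaves the cell, ranged from 5.74 to 10.2 CPM. In both TAC libraries Nlrp3 was below all others, by a few reads.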

How the data were processed

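The authors deposited log2 CPM values for 19320 genes. The submitters' processing notes name limma, without a version, and the build mm10. The aligner, the counting, the annotation and the use of strand are not stated in the sources at hand. Per the labels' protocols, RNA was extracted with TRIzol and a SMARTer mRNA kit was used for the libraries. From the values, 0.5 had been added to the reads before the log, and each pair of columns resolved as 60:40 and 40:60 mixes into whole reads for 99.9% of 115920 values (tolerance 0.05), with 0 negative, and for 552 of 552 values of the genes described. Pairs from different groups gave 20.6 to 21.1%. No source records this mixing. A resolved library takes the number of the column holding its larger share.

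Limma 3.58.1 (R 4.3.3, intensity trend) was fitted to log2 CPM of the resolved libraries with 1 mean per group. It tested the 14447 genes with the CPM of 10 reads in at least 2 libraries and 15 reads in all, which left out 4873 genes with 0.0583% of the reads. Benjamini-Hochberg adjustment ran over all tested genes. Fold changes understate those of low genes. The fit has 3 residual and 11.3 prior degrees of freedom. Genes named by rule are those with the smallest p in each comparison, the most abundant and those nearest the threshold. A list chosen by role and the 2 with the smallest p of each pathway list were added. Further genes, such as Il17rd, Il3ra, Tnfrsf11a and Nppb, were named outside these rules. Genes and lists were chosen with earlier results of these data known. Levels per kilobase use GENCODE M21 exons, whose build, GRCm38, is the same as mm10. Intervals come from the limma fit and, like the p-values, measure the spread between libraries, which may be technical.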

Additional observations from a re-analysis of the deposited data

How the results depend on the processing

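The number of the 46 genes called was 0 in all 3 comparisons under every alternative but the columns as deposited, including voom weights, robust variance, other scalings, filters and reads added, and each library left out. It was also 0 with the genes chosen by their mean CPM, an alternative added after seeing the data. The columns as deposited gave 30 between TAC and sham, 31 between knockdown and TAC and 27 between knockdown and sham, and 13812, 12137 and 13669 of all genes, but the columns of a group are mixes of the same libraries. Otherwise the calls among all genes, 23, 0 and 35 in the same order, moved as follows. The replicate block gave 40 and 1 in the first and second comparisons and 36 in the third. Replicate numbers did not pair the libraries: same-numbered deviations correlated at -0.15 between sham and TAC, 0.09 between sham and knockdown and -0.09 between TAC and knockdown over 10248 genes. With the TAC numbers exchanged in the block, an alternative chosen after seeing the data, there were 72, 0 and 56. Adding 2 reads gave 42 between TAC and sham, no low-count filter gave 9 there and 14 between knockdown and sham, and voom weights gave 18 between knockdown and sham. Median ratio scaling gave 12 higher and 17 lower between TAC and sham, where library totals gave 12 and 11. Leaving out 1 library gave 4 (without TAC replicate 2) to 45 (without sham replicate 1) between TAC and sham, 0 between knockdown and TAC, and 5 (without sham replicate 2) to 50 (without sham replicate 1) between knockdown and sham. The lone library left in a group is assumed to vary like the others. Of 525 alternative values of the 35 fold changes followed, 488 kept their direction and side of the threshold, 35 passed it, all in the columns as deposited, and 2 reversed. Both were Tnfrsf12a between TAC and sham, which ran from -0.72 to 0.81 with 1 library left out. Few reads limit Tnfsf13, Tnfrsf11b, Il1rl1 and every row below the threshold.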
